A study of Mus musculus with 16 samples.

Results

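Lungs of ARF-DTR mice aged 12 months and treated with diphtheria toxin (DT) were compared with lungs of untreated ARF-DTR mice aged 2 months. The 8 arrays used were chosen by their sample titles, 4 per group, out of 16 arrays in the series. ARF-DTR mice carry a receptor for DT under control of the Arf promoter, which makes cells with an active Arf promoter sensitive to the toxin. The 12-month mice had been injected intraperitoneally with 50 microgram DT per kg every 2 weeks over 1 month. The 2-month mice had no injection listed. All mice were female, and all lungs of these 8 arrays carried the transgene. Arrays of 12-month ARF-DTR mice given saline (PBS, 4 arrays) and of 12-month wild type mice given PBS (2 arrays) or DT (2 arrays) were used to set values beside the main ones. The transgene acts only in cells whose Arf promoter is active, and the labels do not say how many cells of the lung these were. Nothing in the labels says that the 4 samples of a group came from 4 mice, so the p-values cover only the spread among these samples, which can be technical.

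Arf is 1 of the products of the Cdkn2a locus and is made in cells that have entered senescence, a lasting arrest of the cell cycle. Ageing lungs are known to gather lymphoid cells, including plasma cells, which secrete antibody and hold large amounts of immunoglobulin mRNA. They are also known to change in macrophages, in the smooth muscle of airways and vessels, and in the matrix that gives the lung its recoil. The comparison addresses what still sets the 12-month lung apart from the young lung after DT.

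Total RNA of whole homogenised lung was hybridised to Agilent arrays of 60-base probes in a single colour. Levels are given as log2 intensity minus the 75th percentile of the same array, so that 0 is the 75th percentile and a difference of 1 is 2-fold. Positions are those of the probes on the mouse build mm9. Each group lay on a slide of its own. The 2-month arrays shared slide 1 with the 12-month ARF-DTR PBS arrays, and the DT-treated arrays shared slide 2 with the wild type arrays. Age, injection, DT and slide therefore cannot be told apart in the comparison itself. The 75th percentile lay between 873 and 1088 intensity units on the 2-month arrays and between 613 and 725 on the DT-treated arrays, so the depth of signal differed with the group. On these 8 arrays 61.7% to 66.1% of probes stood well above background. Pairs of arrays of the same group differed by a median of 0.15 (absolute log2 difference, range 0.12 to 0.21), and pairs across the groups by 0.25 (0.20 to 0.29).

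Of 25574 genes tested, 7869 (30.8%) passed the threshold of an adjusted p under 0.05 in a limma fit, 3787 of them (14.8%) higher in the DT-treated 12-month lungs and 4082 (16%) lower. The shares of 14.8% and 16% are those to set beside the counts of gene lists below. After a normexp background correction, 9741 genes passed, 67.1% of them higher, against 48.1% of the calls as given here. Most differences were small, with a median size of 0.44 on the log2 scale among the genes that passed. Of the genes that passed, 530 (2.07% of all tested) were at least 2-fold higher, with a median of 2.05, and 422 (1.65%) were at least 2-fold lower, with a median of -1.28. The latter count was 101 after the normexp correction. At least 4-fold differences were seen for 268 genes that were higher and 40 that were lower. The 4 values of a group did not overlap those of the other group for 7506 genes (29.4%), among them 512 of the 530 and 383 of the 422. In 91 of the 530 the probe was not well above background on any 2-month array, and in 80 of the 422 it was not on any DT-treated array. Just inside the 2-fold limit lay Glipr2 and Gbp8 (both 1.0, log2) and Rex2 and Ccdc190 (-1.01 and -1.0). Just outside lay Psrc1 and Sdf2l1 (0.999 and 0.996) and Pcdhb10 and Meox1 (-0.999 and -0.997).

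The slides were compared in arrays that the main comparison did not use. Wild type PBS arrays on slide 2 were set against 12-month ARF-DTR PBS arrays on slide 1, which had the same age and injection and differed in genotype. In that comparison 6047 genes (23.6%) passed. Of the 6917 genes that passed the main comparison at under 2-fold, 81.1% had the same sign there. Of the 422 genes at least 2-fold lower, 79.4% had the same sign and 170 passed with it. Of the 530 genes at least 2-fold higher, 40% had the same sign and 5 passed with it, and of the 373 outside the immunoglobulin loci 50.1% had the same sign. Across all genes tested the 2 comparisons had a Pearson correlation of 0.15, and across the 952 genes with at least 2-fold differences one of 0.080, where genes are not independent replicates.

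A fit with slide as a term was possible when the PBS groups of both genotypes were taken as 1, which assumes that genotype has no effect. It gives the within-slide difference of DT-treated from wild type PBS lungs added to the within-slide difference of 12-month PBS from 2-month lungs, and is called the slide-adjusted difference here. In it 735 genes (2.87%) passed as higher and 874 (3.42%) as lower. Of the 530 genes at least 2-fold higher, 458 kept a slide-adjusted difference of at least 1, 307 passed and 0 changed sign. Of the 422 at least 2-fold lower, 148 kept one of at most -1, 91 passed and 98 changed sign. Among the genes named here, the following passed the main comparison and kept its direction but did not pass this fit: Blnk, Cfb, Cxcl10, Glycam1, H2-Aa, Il21, Lyz2, Msln, Sftpd, the epsilon and lambda constant 2 chains, Acta1, Actg2, Cdh17, Ciart, Cnn1, Col1a1, Cox17, Pet100, Synpo2, Tnnt3 and Zfp36. Cdkn2b, Igfbp7 and Scnn1g changed sign and did not pass, and Spry4 passed with the opposite sign. As a count, and without a test, the large rises kept their direction in this fit more often than the large falls did. The fit holds the same 2-month and DT-treated arrays that chose these genes. The rises were also larger, with a median of 2.05 against -1.28, so they had further to go before a change of sign. No conclusion is drawn from the contrast of counts.

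**Figure D1:**
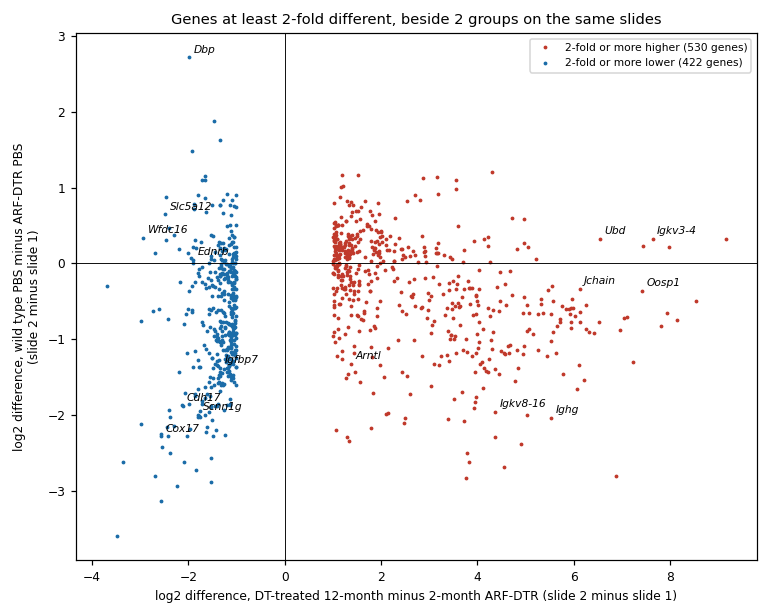
Each point is 1 of the 952 genes at least 2-fold different between DT-treated 12-month and 2-month ARF-DTR lungs. The x axis gives that log2 difference and the y axis the log2 difference of wild type PBS (slide 2) from ARF-DTR PBS (slide 1) lungs, which share no array with it. Of the 422 lower genes 79.4% lie below 0 on the y axis, and of the 530 higher genes 40% lie above 0.

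Immunoglobulin genes held the largest rises. The loci of the kappa light chain (chr6:67790101-70676751), the heavy chain (chr12:114496985-117100268) and the lambda light chain (chr16:19061905-19198710) had 184 genes or segments tested, which were gathered by position after values had been seen. Of these, 160 were higher and 2 lower, against 14.8% higher and 16% lower over all genes tested. At least 2-fold higher were 157, 29.6% of all 530 such genes. A segment dim at 2 months was tested only if it stood above background on other arrays, which favours rises in these counts. The kappa locus had 83 of 88 higher and 0 lower, the heavy chain locus 72 of 91 higher and 2 lower, and the lambda locus 5 of 5 higher. The median difference over the 184 was 4.03 on the log2 scale, against -0.03 over all genes. The slide-adjusted median was 4.93, and the median in the slide 2 against slide 1 comparison was -0.65, opposite in sign. Within slide 1 the 12-month PBS lungs stood 3.23 above the 2-month lungs in the median, and within slide 2 the DT-treated lungs stood 1.70 above wild type PBS lungs. Both comparisons share arrays with the main one. In bulk lung, more cells of a type and more RNA per cell cannot be told apart.

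Constant regions set the class of an antibody. They were identified from the probe descriptions after values had been seen, and the IgG subclasses are so alike in sequence that probes may read each other's RNA. The heavy chain of IgM, mu, had levels of 1.79, 1.67, 1.75 and 1.91 in the 2-month lungs and 7.61, 6.67, 6.86 and 7.84 in the DT-treated lungs. It was higher on all 4 DT-treated arrays, by 5.46 ± 0.64 (log2 ± SE, n = 4 and 4, adjusted p = 7.68e-05). The gamma 1 chain of IgG1 had the largest difference of the 9 constant genes measured, with levels of -4.75, -4.50, -4.61 and -5.80 at 2 months, where 3 of 4 arrays were above background, and 2.95, 2.91, 4.16 and 2.87 after DT. The groups did not overlap, and the difference was 8.14 ± 0.67 (adjusted p = 5.98e-06). Gamma 2B was higher by 7.81 ± 0.61, and gamma 3 by 6.88 ± 1.16, the latter from 2-month levels that were above background on 2 of 4 arrays. Gamma 2C was not well above background in any 2-month lung and was at least 3.41-fold higher (adjusted p = 0.000385). IgA is the class carried into mucus, and its alpha chain was higher by 3.06 ± 0.38 (adjusted p = 0.000117). The epsilon chain of IgE was above background on 0 of 4 young and 2 of 4 DT-treated arrays and was at least 1.95-fold higher (adjusted p = 0.0107). Of the light chains, the kappa constant region was higher by 4.56 ± 0.41 and lambda constant 2 by 1.72 ± 0.23. Among the chains above background on at least 1 array of each group, the slide-adjusted differences ran from 1.22 for lambda constant 2 to 9.68 for gamma 3.

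Variable segments are joined to the constant regions and form the antigen-binding site. Most probes of these loci are annotated only by a sequence record, some of them with larger rises. The probes of the 8 kappa and heavy chain variable segments that have a gene symbol and the largest rises are shown because segments of a family are alike in sequence, and a probe can read RNA of a related segment. Capitals mark the longest stretch that a probe shares with any other of the 8, all read 5′ to 3′ as deposited.
Igkv3-4: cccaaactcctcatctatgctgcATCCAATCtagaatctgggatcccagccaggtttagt
Igk-V21: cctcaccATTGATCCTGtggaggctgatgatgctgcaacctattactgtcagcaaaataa
Igkv8-16: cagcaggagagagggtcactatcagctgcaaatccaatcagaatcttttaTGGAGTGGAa
Igkv6-20: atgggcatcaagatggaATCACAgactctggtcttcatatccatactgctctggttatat
Igkv4-86: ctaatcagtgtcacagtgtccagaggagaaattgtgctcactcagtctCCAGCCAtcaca
Ighv1-77: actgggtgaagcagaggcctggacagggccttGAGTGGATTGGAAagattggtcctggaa
Ighv1-61: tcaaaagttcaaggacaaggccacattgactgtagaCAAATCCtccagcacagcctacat
Ighg: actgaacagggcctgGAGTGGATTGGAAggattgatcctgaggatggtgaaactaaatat
Shared stretches ran from 6 to 13 bases of 60. The longest was shared by the Ighv1-77 probe and that of the segment named Ighg in the array annotation, which lies among the heavy chain variable segments. The kappa probes lay at chr6:70622214-70622273, chr6:70523153-70523212, chr6:70336871-70336930, chr6:70286426-70286485 and chr6:68860655-68860899, the heavy chain probes at chr12:117100209-117100268, chr12:116597403-116597462 and chr12:115170278-115170336. The 8 probes lay at separate places of the kappa and heavy chain loci. They were compared only with one another, so the short stretches do not show whether a probe reads RNA of related segments.

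Igkv3-4, a kappa variable segment, had levels of -2.83, -2.74, -2.67 and -2.72 in the 2-month lungs and 3.15, 5.07, 4.97 and 6.38 in the DT-treated lungs. It was high on all 4 DT-treated arrays, without overlap, by 7.63 ± 0.81 (adjusted p = 3.78e-05). Its slide-adjusted difference was 7.31, and the slide 2 against slide 1 difference was 0.32. Igk-V21, another kappa segment, was higher by 7.10 ± 0.83. Ighv1-77, a heavy chain variable segment, was higher by 5.94 ± 0.51, and Ighv1-61 by 5.56 ± 0.53. The segment named Ighg was higher by 5.54 ± 0.74, Igkv6-20 by 5.78 ± 0.84 and Igkv4-86 by 5.55 ± 0.75. Igkv8-16 was not well above background in any 2-month lung and was at least 16.2-fold higher. Iglv1, a lambda variable segment, was higher by 4.22 ± 0.51 (adjusted p = 9.09e-05). These genes were named because their rises were among the largest, so their size is a description.

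Plasma cell genes were higher with the immunoglobulins. Jchain, whose protein joins IgA and IgM into polymers (probe at chr5:88949919-88949978), had levels of 0.52, -0.84, 0.85 and 0.69 at 2 months and 6.56, 5.93, 6.37 and 6.84 after DT. The DT-treated arrays were all higher, by 6.12 ± 0.53 (adjusted p = 7.19e-06), with a slide-adjusted difference of 6.45. Tnfrsf17, the plasma cell survival receptor BCMA, had levels of -4.79, -6.01, -4.54 and -4.57 at 2 months and -0.79, -1.52, -1.18 and -0.57 after DT. The young levels were near background, with 3 of 4 arrays above it, and the difference was 3.96 ± 0.47 without overlap. Mzb1, a chaperone of antibody assembly, was higher by 3.15 ± 0.42, and Derl3, which takes part in the removal of misfolded proteins from the endoplasmic reticulum, by 2.99 ± 0.47. Pou2af1, a coactivator of immunoglobulin transcription, was higher by 1.51 ± 0.24. Of 12 plasma cell differentiation genes 10 were higher and 2 lower (7 and 0 with slide as a term), with a median of 0.68 (all genes -0.03) and a slide-adjusted median of 0.74. The mean level of the 12 was -0.059 to 0.092 over the arrays at 2 months, 0.17 to 1.17 in 12-month PBS lungs and 0.89 to 1.47 after DT.

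Few markers of B cells before that stage passed. Of 18 B cell markers 1 was higher, Blnk, an adaptor of the B cell receptor (0.59 ± 0.13), and 1 lower, the transcription factor Ebf1 (-0.60 ± 0.094), and 16 did not pass. Without DT replicate 2, 5 were higher. Their median difference was 0.16, and the mean level was 0.23 to 0.46 over the 2-month arrays and 0.27 to 0.59 over the DT-treated arrays. Cxcl13, the chemokine that draws B cells into follicles, had levels of -0.90, -1.04, -1.35 and -0.80 at 2 months and 1.07, 1.20, 2.62 and 1.60 after DT. It was higher on all 4 DT-treated arrays, by 2.65 ± 0.38 (adjusted p = 0.000293). Of the 13 chemokines and lymphotoxins of lymphoid follicles measured, 3 were higher and 2 lower (1 higher without 2-month replicate 4, DT replicate 1 or DT replicate 4).

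Among T cell genes, checkpoint receptors and chemokine receptors had the largest rises. Pdcd1, the inhibitory receptor PD-1, had levels of -4.18, -4.32, -4.07 and -3.77 in young and -1.03, -1.84, -1.17 and -0.43 in DT-treated lungs. The groups did not overlap, and the difference was 2.97 ± 0.43 (adjusted p = 0.000337) with a slide-adjusted difference of 3.58. Ctla4, another inhibitory receptor, was not well above background on any 2-month array and was at least 2.54-fold higher. Cxcr3, the receptor of Cxcl9 and Cxcl10, was higher by 1.53 ± 0.19, and Cxcr6, a receptor of tissue-resident T cells, by 1.39 ± 0.13. Of 26 T cell markers 13 were higher and 3 lower (6 and 1 with slide as a term), with a median of 0.35. At 2-fold or more, 5 of the markers were higher and 1 was lower, and 10 of the 26 did not pass. Of 19 natural killer and cytotoxic genes 2 were higher and 6 lower, with a median of -0.20 (3 lower without 2-month replicate 2, DT replicate 1 or DT replicate 4). Slide-adjusted, 0 of these natural killer genes were higher and 7 lower, with a median of -0.48. A cytotoxic granule gene of this list differed by -0.40 on the probe used and by 4.35 on another kept probe.

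**Figure D2:**
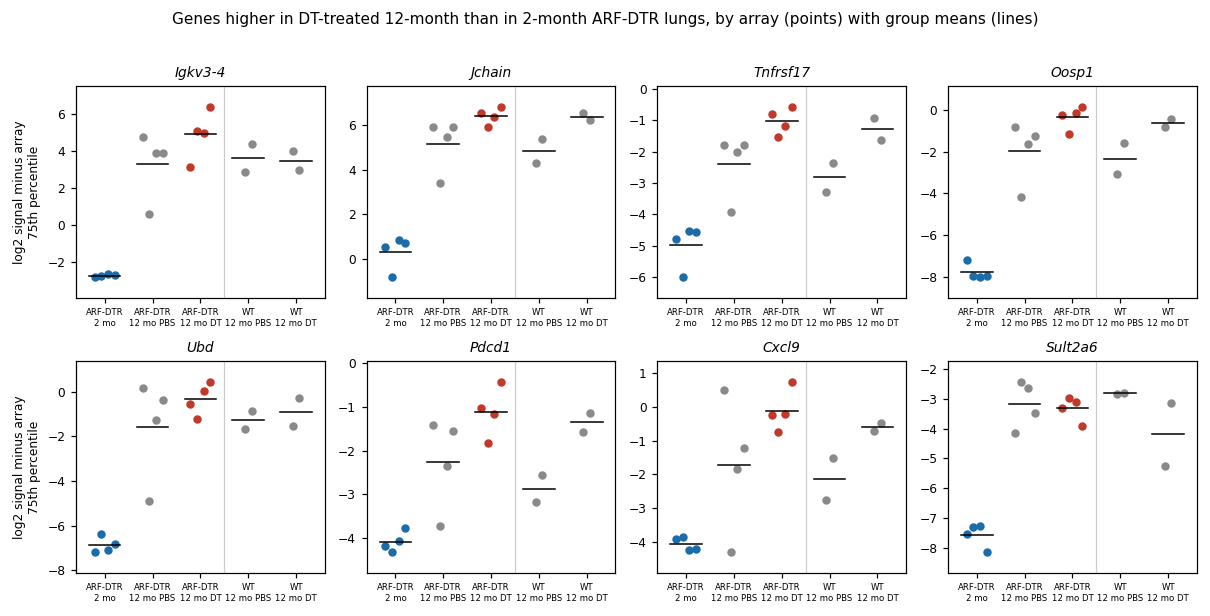
Log2 levels over the array's 75th percentile (y axis) of 8 genes that were higher in DT-treated 12-month lungs, by group (x axis), with 1 point per array and a bar at the group mean. For all 8 genes the DT-treated arrays lie above the 2-month arrays, and the 12-month PBS arrays of both genotypes are drawn beside them.

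Genes of antigen presentation on MHC class II were higher, in part to a size seen between slides as well. H2-Aa, the alpha chain of I-A (probe at chr17:34421285-34421344), had levels of 4.21, 3.98, 3.87 and 4.03 at 2 months and 5.43, 4.82, 5.43 and 5.47 after DT. DT replicate 2 was the lowest of its group, yet the groups did not overlap, and the difference was 1.27 ± 0.13 (adjusted p = 3.28e-05). Cd74, the invariant chain that fills the class II groove, was higher by 1.11 ± 0.10, and H2-DMb1, which helps to load peptide, by 1.07 ± 0.094. H2-Eb1, the beta chain of I-E, was higher by 0.89 ± 0.10. Of the 10 genes measured 8 were higher and 0 lower (5 and 0 with slide as a term), with a median of 0.81, a slide-adjusted median of 0.56 and a median of 0.26 in the slide 2 against slide 1 comparison. Class II promoters share an X box and a Y box, the latter bound by NF-Y. The last 100 bases before the start of 3 of these genes are shown because their transcripts were higher together, from RefSeq on GRCm38.p6, with the Y box core ATTGG (or its reverse complement CCAAT) in capitals.
H2-Aa: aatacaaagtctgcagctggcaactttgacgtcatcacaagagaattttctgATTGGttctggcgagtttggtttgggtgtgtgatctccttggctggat
H2-Eb1: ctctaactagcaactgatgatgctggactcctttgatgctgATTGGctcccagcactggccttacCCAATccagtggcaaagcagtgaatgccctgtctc
H2-DMb1: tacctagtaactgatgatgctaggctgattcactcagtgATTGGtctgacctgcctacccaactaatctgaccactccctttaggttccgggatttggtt
The core stood at 48 bases before the start of H2-Aa (chr17:34287824-34287923, minus strand), at 59 and 35 bases before that of H2-Eb1 (chr17:34305767-34305866, plus strand) and at 61 bases before that of H2-DMb1 (chr17:34153091-34153190, plus strand). It was found on either strand within 250 bases in all 7 class II genes with a promoter entry, and in 33.8% of 32851 promoters. A match of these letters is a description and no evidence of binding.

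Interferon-induced genes and chemokines held several of the largest rises outside the immunoglobulin loci. Ubd, the ubiquitin-like modifier FAT10 (probe at chr17:37332688-37332747), had levels of -7.18, -6.39, -7.09 and -6.81 in young lungs, where it was not well above background on any array, and -0.57, -1.24, 0.034 and 0.45 after DT. It was at least 44.4-fold higher (adjusted p = 0.00016), and passed with slide as a term (adjusted p = 0.0183). Cxcl9, a chemokine for activated T cells that interferon gamma induces, had levels of -3.92, -3.86, -4.25 and -4.23 at 2 months and -0.22, -0.75, -0.22 and 0.76 after DT. All 4 DT-treated arrays were higher, by 3.96 ± 0.73 (adjusted p = 0.00156). Cxcl10, of the same family, was higher by 2.36 ± 0.42. Of 24 interferon-induced genes 8 were higher and 0 lower, and 3 were higher with slide as a term, with a slide-adjusted median of -0.041. DT replicate 3 was the highest of the DT-treated arrays for 22 of the 24. Without it 5 were higher and the median was 0.22, against 0.43 with it. The count was also 5 without DT replicate 4 and without 2-month replicate 1, 3 or 4. Ccl8, a monocyte-attracting chemokine, had levels of -0.16, -0.43, 0.32 and 0.26 at 2 months and 3.16, 3.0, 3.09 and 3.91 after DT. Its groups did not overlap, and the difference was 3.29 ± 0.43. Cxcl5, which attracts neutrophils, was higher by 3.39 ± 0.60, while of 16 neutrophil genes 2 were higher and 1 lower.

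Complement and macrophage genes were higher as well. Cfb, factor B of the alternative complement pathway, had levels of 2.08, 1.76, 1.95 and 2.03 at 2 months and 3.23, 3.08, 5.64 and 3.50 after DT. DT replicate 3 was the highest, the groups did not overlap, and the difference was 1.91 ± 0.43 (adjusted p = 0.00486). C1qb and C1qc, chains of the C1q recognition protein that macrophages make, were higher by 1.34 ± 0.18 and 1.29 ± 0.18, and C2 by 1.33 ± 0.18. Of 17 complement genes 12 were higher and 1 lower (5 and 0 with slide as a term), with a median of 0.83 and a slide-adjusted median of 0.56. For 15 of the 17, DT replicate 3 was the highest of the DT-treated arrays. Without it 12 were higher and 1 lower, with a median of 0.74. Mmp12, macrophage elastase, had levels of -4.98, -5.04, -5.28 and -5.15 at 2 months and -2.0, -3.90, -2.72 and -2.06 after DT. The DT-treated arrays were all higher, by 2.44 ± 0.39 (adjusted p = 0.000583). Trem2, a lipid receptor of macrophages, was higher by 1.74 ± 0.29. Spp1, osteopontin, was higher by 1.32 ± 0.16. Of 15 lipid-handling macrophage genes 9 were higher and 0 lower (4 and 1 with slide as a term), 4 of them 2-fold or more. Of 15 genes of resident alveolar macrophages 8 were higher and 0 lower (1 and 0 with slide as a term, 5 and 0 without 2-month replicate 2 or DT replicate 4), with a median of 0.55 and 0 members at 2-fold or more.

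Several genes with large rises belong to no immune list. Oosp1, which encodes an oocyte-secreted protein (probe at chr19:11742163-11742222), had levels of -7.17, -7.94, -8.01 and -7.97 in young lungs, where it was not well above background on any array, and -0.25, -1.17, -0.13 and 0.15 after DT. It was at least 43.8-fold higher (adjusted p = 5.14e-06), and passed with slide as a term (adjusted p = 0.00085). The sulfotransferases Sult2a1, Sult2a2, Sult2a4 and Sult2a6, which add sulfate to steroids and bile acids, were not well above background in any 2-month lung. Sult2a6 had levels of -7.52, -7.28, -7.26 and -8.13 at 2 months and -3.33, -2.97, -3.11 and -3.91 after DT and was at least 5.55-fold higher. Sult2a1 was at least 10.14-fold higher, Sult2a4 at least 4.52-fold and Sult2a2 at least 2.8-fold. These are near-identical genes that a probe may not separate, and Sult2a6 differed from wild type PBS lungs of the same slide by -0.50 (adjusted p = 0.632). Glycam1, a mucin-like ligand of L-selectin on lymph node venules, was at least 5.28-fold higher (adjusted p = 0.0124), and did not pass with slide as a term (adjusted p = 0.253). Genes of the mesothelium, which covers the lung, were also higher. Wt1, its transcription factor, had levels of -2.22, -2.45, -1.31 and -1.72 at 2 months and -0.020, 0.086, 1.73 and 0.46 after DT, without overlap, and was higher by 2.49 ± 0.36 (adjusted p = 0.000315). Msln, mesothelin, was higher by 1.93 ± 0.27, and 8 of 9 mesothelial markers were higher and 0 lower, 7 of them 2-fold or more, while 2 passed with slide as a term. For all 9, DT replicate 3 was the highest of the DT-treated arrays. Without it 8 were higher and 0 lower, with a median of 1.59 against 1.81 with it. The mean level of the 9 markers was -0.18 to 0.48 over the 2-month arrays and 1.37 to 2.30 over the DT-treated arrays, and how much surface tissue a sample held was not measured.

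**Figure D3:**
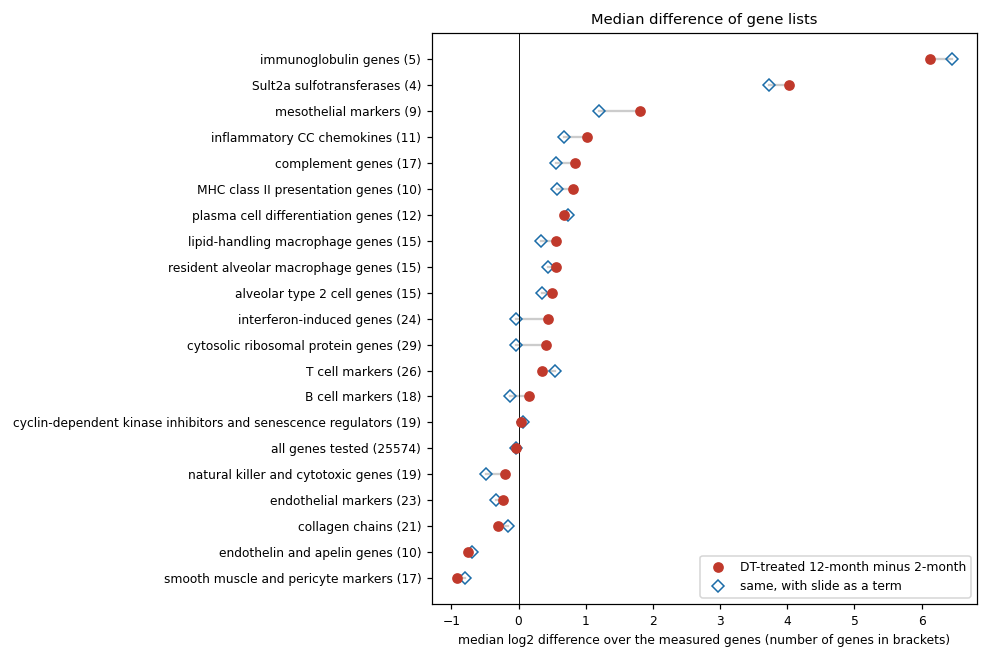
Median log2 difference (x axis) of the measured members of 20 gene lists and of all genes tested (y axis), as a red circle for DT-treated 12-month minus 2-month lungs and a blue diamond for the slide-adjusted difference. Immunoglobulin, sulfotransferase and mesothelial lists lie to the right and smooth muscle, endothelin and apelin lists to the left, while ribosomal genes move from 0.41 to -0.04 with slide as a term.

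The largest falls were smaller than the largest rises. Wfdc16, of the WAP family of secreted proteins (probe at chr2:164460222-164460281), had levels of -1.15, -0.71, -0.96 and -1.22 at 2 months and -3.88, -4.01, -4.03 and -3.88 after DT. The young arrays were all higher, and the gene was lower in DT-treated lungs by 2.94 on the log2 scale (difference -2.94 ± 0.17, adjusted p = 2.52e-07). Its slide-adjusted difference was -3.28. Slc5a12, a sodium-coupled lactate transporter, had levels of -0.14, 0.20, -0.024 and 0.024 at 2 months and -2.30, -2.10, -2.78 and -2.71 after DT, without overlap. Its difference was -2.49 ± 0.14 and that from wild type PBS lungs of the same slide was -2.20 (adjusted p = 9.83e-05). Gprc6a, a receptor for basic amino acids, differed by -2.30 ± 0.18 and Prdm8, a nuclear PR-domain protein, by -2.47 ± 0.25. Optc, a small proteoglycan of the eye's vitreous, differed by -2.70 ± 0.38. Smco3 was not well above background on any DT-treated array and was at least 3.02-fold lower, Dner, a neuronal ligand of Notch, at least 3.99-fold, and Chrm1, a muscarinic receptor, at least 1.52-fold.

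Other large falls were also seen between the slides. Cox17, a copper chaperone of cytochrome c oxidase, had levels of -2.81, -2.18, -2.24 and -2.38 at 2 months and -5.15, -5.18, -4.92 and -4.65 after DT. The young arrays were all higher and the difference was -2.57 ± 0.24 (adjusted p = 1.44e-05), but wild type PBS lungs on slide 2 differed from ARF-DTR PBS lungs on slide 1 by -2.28. The slide-adjusted difference was -0.29 (adjusted p = 0.722). A second kept Cox17 probe, dimmer at 2 months with means of -5.29 and -5.50 after DT, differed by -0.21. Pet100, an assembly factor of the same enzyme, was not well above background on any DT-treated array and was at least 1.17-fold lower, and Cdh17, a cadherin of the gut, likewise at least 2.84-fold. Neither passed with slide as a term (adjusted p = 0.604 and 0.701). Igfbp7, a secreted binding protein of insulin-like growth factors, differed by -1.34 ± 0.13 with a slide-adjusted difference of 0.036. Scnn1g, the gamma subunit of the epithelial sodium channel, differed by -1.80 ± 0.17 with 0.21. Spry4, an inhibitor of ERK signalling, was lower by 0.94 in the main comparison and higher by 1.25 with slide as a term. Cytosolic ribosomal proteins were higher for 28 of 29 genes, all by less than 2-fold, and their slide 2 against slide 1 median was 0.45. Within slide 1 the 12-month PBS lungs differed from the 2-month lungs by 0.28 for Cox17, -0.25 for Cdh17, -0.37 for Igfbp7, 0.11 for Scnn1g, 0.18 for Spry4 and a median of 0.029 for the ribosomal genes. These within-slide values were smaller than the differences from the DT-treated lungs, while slide and genotype cannot be told apart in the slide 2 against slide 1 values.

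**Figure D4:**
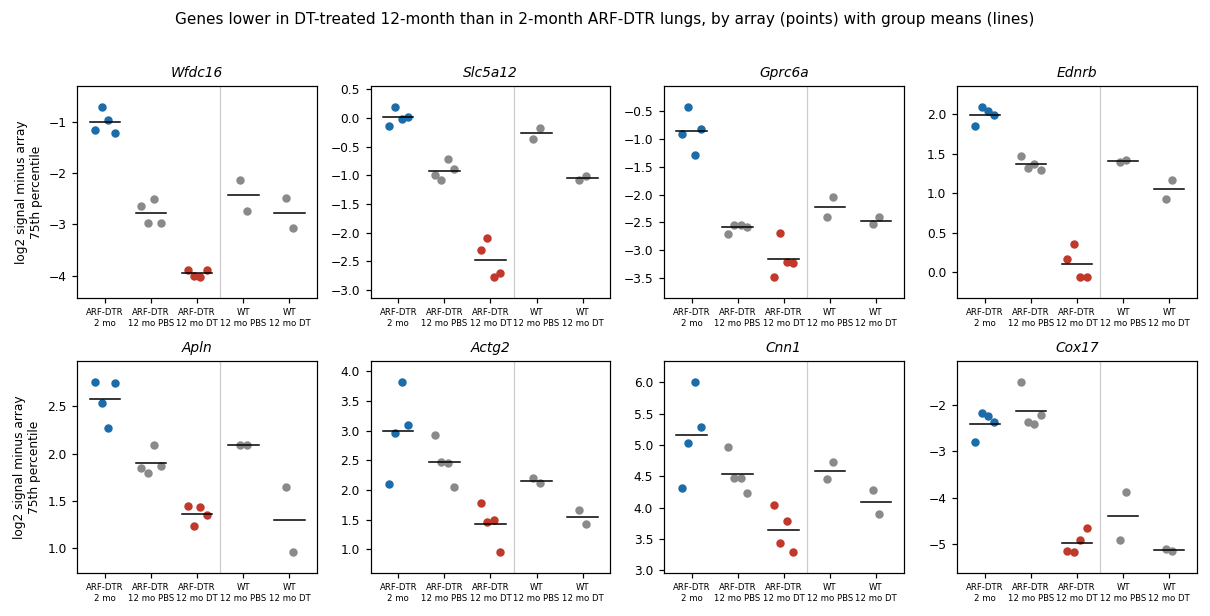
Log2 levels over the array's 75th percentile (y axis) of 8 genes that were lower in DT-treated 12-month lungs, by group (x axis), with 1 point per array and a bar at the group mean. Wild type PBS arrays of slide 2 lie near the DT-treated arrays for Cox17 and well above them for Slc5a12.

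Some genes of vessels were lower. The endothelin and apelin systems set the tone and growth of vessels. Ednrb, the endothelin B receptor of lung endothelium (probe at chr14:104214484-104214543), had levels of 1.85, 2.10, 2.04 and 1.99 at 2 months and 0.17, 0.36, -0.058 and -0.065 after DT. The groups did not overlap, and the difference was -1.89 ± 0.097 (adjusted p = 1.62e-07), with a slide-adjusted difference of -1.94 (adjusted p = 4.91e-05). Against wild type PBS lungs of the same slide it was -1.31 (adjusted p = 0.000191). Apln, the ligand apelin, had levels of 2.76, 2.54, 2.27 and 2.75 at 2 months and 1.45, 1.24, 1.44 and 1.35 after DT, all lower after DT, with a difference of -1.21 ± 0.14. Aplnr, its receptor, differed by -1.71 ± 0.29, and Edn3, endothelin 3, by -1.26 ± 0.19. Of the 10 endothelin and apelin genes measured 6 were lower and 0 higher (4 and 0 with slide as a term), with a median of -0.75. Of 23 endothelial markers 10 were lower and 0 higher (4 and 0 with slide as a term), and 13 did not pass. Their median was -0.23. Only Kdr, the main VEGF receptor, reached 2-fold, with -1.04 ± 0.095 on the probe used and -0.32 on a second kept probe. Without DT replicate 3, 5 of the markers were lower. Their mean level was 3.45 to 3.60 over the 2-month arrays and 3.20 to 3.45 over the DT-treated arrays.

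Smooth muscle markers were lower as a group. Actg2, an actin of visceral smooth muscle, had levels of 2.10, 2.95, 3.82 and 3.10 at 2 months and 1.79, 1.46, 1.50 and 0.95 after DT. The groups did not overlap and the difference was -1.57 ± 0.30 (adjusted p = 0.00178), and it did not pass with slide as a term (-1.25, adjusted p = 0.142). Cnn1, calponin, had levels of 4.31, 5.04, 6.01 and 5.29 at 2 months and 4.04, 3.45, 3.79 and 3.29 after DT. It was lower on all DT-treated arrays, by 1.52 on the log2 scale, and Synpo2, which bundles actin, by 1.34. Of 17 smooth muscle and pericyte markers 16 were lower and 1 higher (6 and 1 with slide as a term), with a median of -0.92 and a slide-adjusted median of -0.80. The exception was Rgs5, a pericyte gene that limits G protein signals, which was higher by 1.45 ± 0.31. The mean level of the 17 was 1.37 to 2.19 on the 2-month arrays, 1.35 to 1.56 on 12-month PBS arrays, 0.85 to 1.0 on DT-treated arrays, 1.20 to 1.22 in wild type PBS lungs and 0.90 to 0.92 in wild type DT lungs. Cardiac muscle markers, a measure of vein and heart tissue in a sample, had a mean level of -1.54 to 2.72 on the 2-month arrays and 0.71 to 1.44 on the DT-treated arrays. Of 17 such genes 1 was lower, and 14 were without 2-month replicate 1. Their part in the smooth muscle result was not tested. The skeletal muscle genes Tnnt3, a fast troponin, and Acta1, an actin, differed by -2.60 ± 0.56 and -1.73 ± 0.21.

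Some matrix genes were lower. Col1a1, a chain of type I collagen, had levels of 4.27, 3.73, 3.73 and 3.90 at 2 months and 3.05, 2.59, 2.95 and 2.86 after DT. The groups did not overlap and the difference was -1.05 ± 0.18 (adjusted p = 0.00102), beside a difference of -1.09 between 12-month PBS and 2-month lungs on slide 1. Of 21 collagen chains 9 were lower and 0 higher, with Col1a1 alone at 2-fold or more. Of 22 elastic fibre genes 6 were lower and 0 higher, beside 16% lower and 14.8% higher over all genes tested. With slide as a term 0 of the collagen chains passed in limma (2 were lower and 1 higher at an unadjusted p under 0.05), and 2 of the elastic fibre genes passed as lower. The collagen median was -0.31, or -0.16 with slide as a term.

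Immediate early genes answer signals within minutes. Egr1, a zinc finger factor of this class, had levels of 3.37, 2.54, 2.50 and 1.88 at 2 months and 1.12, 1.12, 0.92 and 0.51 after DT. It was lower on all DT-treated arrays, by 1.65 on the log2 scale (adjusted p = 0.00084), and its difference from wild type PBS lungs of the same slide was -1.96 (adjusted p = 0.00964). Fos, a subunit of AP-1, differed by -1.14 ± 0.29, and Zfp36, which speeds the decay of cytokine mRNA, by -1.32 ± 0.15. Of 19 such genes 8 were lower and 2 higher, and 5 were lower without 2-month replicate 1, DT replicate 3 or DT replicate 4. With slide as a term 4 were lower and 3 higher, so the counts were nearly even. The median was -0.17, and -0.25 with slide as a term. Within slide 1, 3 were higher and 0 lower in ARF-DTR PBS lungs than in 2-month lungs.

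Clock genes differed in both directions. The clock is a loop in which Arntl and Npas2 or Clock drive Per, Cry and Nr1d1, which then repress them, so that lungs taken at other times of day differ in these genes. The labels used here do not give the time of collection. Dbp, an output factor of the loop (probe at chr7:52965461-52965520), had levels of 5.17, 5.19, 4.38 and 4.87 at 2 months, 1.64, 1.87, 2.46 and 2.20 in 12-month PBS lungs and 2.74, 3.31, 2.63 and 2.95 after DT. The young arrays were higher than both, and the difference of the DT-treated lungs was -1.99 ± 0.21 (adjusted p = 3.85e-05). The wild type lungs of slide 2 had levels of 4.86 and 4.67 with PBS and 5.41 and 5.17 with DT, beside the 2-month levels. Wild type PBS lungs thus lay above ARF-DTR PBS lungs by 2.72, and within slide 2 the DT-treated ARF-DTR lungs lay at -1.86 relative to wild type PBS (adjusted p = 0.00366). The slide-adjusted difference of -4.71 takes the first of these as slide alone, and slide and genotype cannot be told apart in it. Nr1d1, a repressor in the loop, had levels of 1.53, 1.39, 0.99 and 1.19 at 2 months and -0.29, 0.29, -0.19 and -0.10 after DT, all lower after DT, with a difference of -1.35 ± 0.17. Arntl, the activator BMAL1, was higher by 1.37 ± 0.15. Npas2, its partner, was not well above background on any 2-month array and was at least 1.92-fold higher. Of 19 clock genes 4 were higher and 9 lower (5 and 6 with slide as a term), with a median of -0.16 and a slide-adjusted median of -0.67. Clock genes are known to be driven through E-boxes (CACGTG) and D-boxes (TTATGTAA), so the 250 bases before the start of Ciart, which holds the most E-boxes of the list, and of Per3, the only one with the D-box, are shown from RefSeq on GRCm38.p6, with these motifs in capitals.
Ciart: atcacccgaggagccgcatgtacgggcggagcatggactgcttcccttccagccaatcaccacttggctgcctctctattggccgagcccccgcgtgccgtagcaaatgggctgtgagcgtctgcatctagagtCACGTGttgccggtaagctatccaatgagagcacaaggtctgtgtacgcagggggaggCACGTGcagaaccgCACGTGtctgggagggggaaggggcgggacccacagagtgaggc
Per3: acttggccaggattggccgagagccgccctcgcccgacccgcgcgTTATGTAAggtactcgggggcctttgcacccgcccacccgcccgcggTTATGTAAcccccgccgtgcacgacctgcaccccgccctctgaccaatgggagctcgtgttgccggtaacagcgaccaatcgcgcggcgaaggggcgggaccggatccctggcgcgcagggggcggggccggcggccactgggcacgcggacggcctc
The Ciart sequence (chr3:95882229-95882478, minus strand) held CACGTG at 116, 58 and 44 bases before the start, and that of Per3 (chr4:151044666-151044915, minus strand) held TTATGTAA at 205 and 158 bases. Within 250 bases, CACGTG on either strand was found in 5 of 16 clock genes with a promoter entry and in 6.02% of all promoters, and TTATGTAA in 1 of 16 and 0.819%. Ciart, a repressor of the loop, differed by -1.18 ± 0.20 (adjusted p = 0.000764) and Per3 by -1.02 ± 0.19 (adjusted p = 0.00179).

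**Figure D5:**
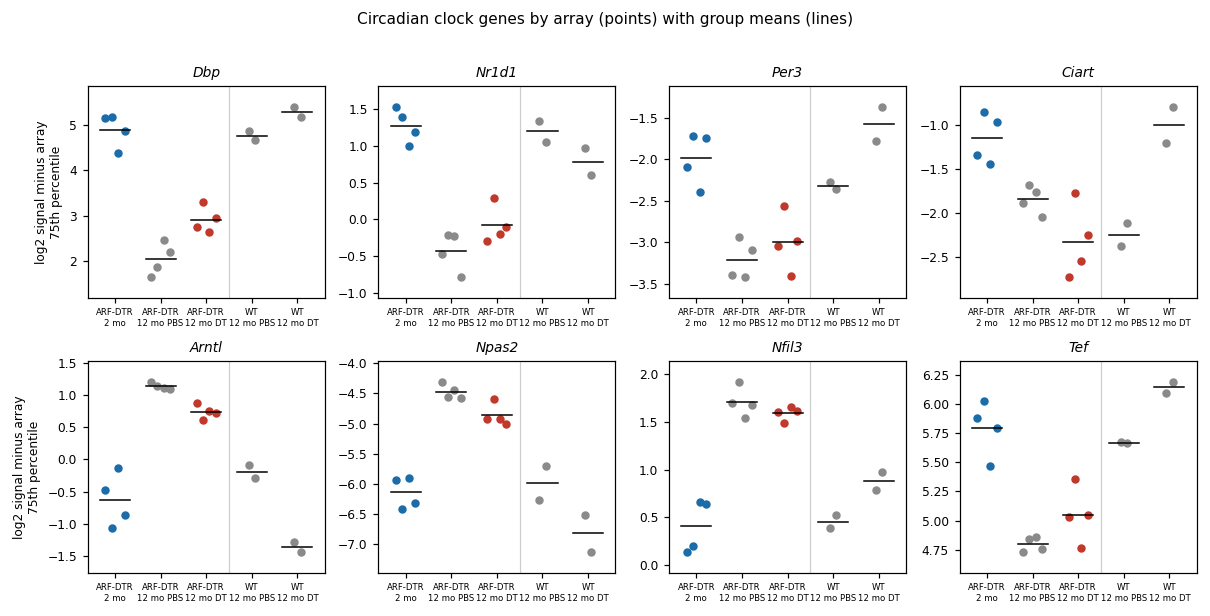
Log2 levels over the array's 75th percentile (y axis) of 8 clock genes by group (x axis), with 1 point per array and a bar at the group mean. Among the ARF-DTR groups, Dbp and Nr1d1 are highest and Arntl and Npas2 lowest on the 2-month arrays, and the wild type PBS arrays lie nearer to the 2-month arrays than to either 12-month ARF-DTR group for these 4 genes.

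Genes of alveolar and club cells that passed differed by less than 2-fold. Of 15 genes of alveolar type 2 cells, which make surfactant, 11 were higher and 0 lower, with a median of 0.50. With slide as a term 0 of the 15 passed in limma (5 were higher at an unadjusted p under 0.05), and the median was 0.34. Sftpd, surfactant protein D, was higher by 0.77 ± 0.10, with a slide-adjusted difference of 0.24, and Lyz2, lysozyme, by 0.84 ± 0.13. Of 14 genes of alveolar type 1 cells 4 were higher and 3 lower, beside 14.8% higher and 16% lower over all genes tested. Of 16 club and mucous cell genes 3 were higher and 0 lower (2 and 3 without 2-month replicate 1, 2 and 2 without DT replicate 1). Mean club and mucous levels were 2.37 to 5.15 over the 2-month arrays and 3.57 to 4.63 over the DT-treated arrays.

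Genes of the locus that drives the transgene, and of its pathway, were read at every level. Cdkn2a, the locus of Arf and p16 (probe at chr4:88920405-88920464), had levels of -1.67, -1.27, -2.25 and -1.50 at 2 months and -1.55, -2.18, -1.19 and -1.78 after DT. The groups overlapped, and the difference was 0.00094 ± 0.27 (adjusted p = 0.998). Cdkn2b, the neighbouring inhibitor p15, was lower by 0.42 (log2, adjusted p = 0.00106), with a slide-adjusted difference of 0.0060. Cdkn1a, the inhibitor p21, had levels of 0.77, 1.09, 1.31 and 1.25 at 2 months and 1.93, 2.10, 2.21 and 2.13 after DT. It was higher without overlap, by 0.98 ± 0.11 (adjusted p = 6.12e-05), and slide-adjusted by 1.78 (adjusted p = 0.000208). The 12-month ARF-DTR PBS lungs had Cdkn1a levels of 1.74, 2.01, 1.86 and 2.02, and wild type PBS lungs had 1.21 and 1.02. The slide-adjusted difference takes the gap between these PBS groups as slide alone, and slide and genotype cannot be told apart in it. Hbegf, which encodes the mouse form of the DT receptor, differed by -0.18 ± 0.13 (adjusted p = 0.304) with overlapping groups. Over all genes tested 14.8% were higher and 16% lower. Of 27 senescence-associated cytokines and proteases 7 were higher and 4 lower (2 and 0 with slide as a term), with a median of 0.20. Of 28 mitotic and replication genes 6 were higher and 0 lower. With slide as a term 0 of these 28 passed in limma (11 were higher and 0 lower at an unadjusted p under 0.05). Without 2-month replicate 2 the first list had 4 higher and 3 lower. The second had 10 higher without 2-month replicate 1 and 2 or 3 without any other single array apart from DT replicate 2.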

How the data were processed

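Total RNA of 16 mouse lung samples was hybridised to Agilent 1-colour arrays, 1 array per sample. Per the file headers, images were read with Agilent Feature Extraction 10.10.1.1 and probes placed on mm9. The deposited scanner files hold the intensity of each spot, background-subtracted and detrended but not scaled between arrays. The authors' series table holds log2 values, which served as an alternative, and 93.9% of them lay within 0.01 of the values computed here. Further steps by the authors: not given in the sources used here.

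Control spots and outlier spots (105 to 171 per array) were left out, and 0 spots were saturated. Log2 intensity minus the array's 75th percentile was used for probes well above background on at least 4 of 16 arrays (37037 probes). The brightest probe stood for each of 25574 genes. Names came from RefSeq through the accession (27656 probes) or the symbol (3721), and otherwise from the file (24304). Several named or listed genes (7) had kept probes that differed in opposite directions, and none of them is named in the text. They still entered the counts and medians of their lists through the brightest probe. In the complement list 1 such gene differed by -1.12 on that probe and by 2.18 on another. In the natural killer and cytotoxic list 1 differed by -0.40 and by 4.35.

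All 16 arrays entered a limma 3.58.1 fit (R 4.3.3, data.table at version 1.17.8, jsonlite 2.0.0) with 1 mean per group, moderated two-sided tests and Benjamini-Hochberg adjustment over all genes. Adjusted p-values in the text come from it, and values after ± are its standard errors. The script was tested on simulated data. A bound "at least" sets the brighter group's mean against the dimmer group's after each dim value was raised to the lowest signal of a probe well above background on that array.

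Named genes were Cdkn2a, Cdkn2b, Cdkn1a and Hbegf, the 15 largest rises and 15 largest falls that passed, were at least 2-fold, did not overlap and had a proper symbol, up to 4 members with the largest differences in each of 51 lists, and the 10 largest of either direction that kept 2-fold with slide as a term. Of these, the text describes those that its groups turn on, with Ciart and Per3 added for their promoters. The comparison, members and lists were chosen with earlier results of these data known. Alternatives were the scaling, background correction, filters, arrays in the fit, probe rule, slide, replicate number, variance model and each array left out. Those for the wild type against ARF-DTR PBS count were chosen after seeing the data. The free-text description of replicate 1 of the wild type PBS group mentions DT, against its title and treatment label, which were followed.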

Additional observations from a re-analysis of the deposited data

Results flagged for a closer look

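Of 198 pairs of a named gene and 1 of the compared groups, 14 had 1 array set apart from the other 3 by more than Dixon's critical value, where chance gives about 1 in 20.

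Among the DT-treated lungs, replicate 2 was low for the class II genes H2-Aa (4.82, the others 5.43 to 5.47) and H2-Eb1 (7.22, the others 7.55 to 7.60). Replicate 3 was high for the complement factor Cfb (5.64, the others 3.08 to 3.50) and for the heavy constant gamma 1 chain (4.16, the others 2.87 to 2.95). Replicate 4 was high for the lambda segment Iglv1 (6.49, the others 4.84 to 4.98).

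Among the 2-month lungs, replicate 2 was low for C1qc (1.70, the others 1.89 to 1.90) and Tnfrsf17 (-6.01, the others -4.79 to -4.54), and high for Scnn1g (0.93, the others 0.69 to 0.73) and Sult2a2 (-7.99, the others -8.05 to -8.04). Replicate 1 was high for Oosp1 (-7.17, the others -8.01 to -7.94) and low for Cdh17 (-4.56, the others -4.09 to -4.02). Replicate 3 was low for H2-DMb1 (3.60, the others 3.70 to 3.71) and high for Il21 (-7.11, the others -7.91 to -7.85). Replicate 2 was also high for Oosp2 (-7.97, the others -8.04 to -8.03). The 2-month levels of Oosp1, Oosp2, Il21 and Sult2a2 were not well above background.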

How the results depend on the processing

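With slide as a term 1609 genes passed in place of 7869, and 245 were at least 2-fold lower in place of 422, while 434 were at least 2-fold higher in place of 530. That term rests on 2 wild type PBS arrays and on genotype having no effect. With it 4 named genes changed sign, Cdkn2b to 0.0060, Igfbp7 to 0.036, Scnn1g to 0.21 and Spry4 to 1.25, as did the medians of B cell markers (-0.13), interferon-induced genes (-0.041) and ribosomal genes (-0.038). Of 24 list medians, 12 others moved by more than 1 SD between arrays. After normexp 101 genes were at least 2-fold lower, and Chrm1 and Pet100 changed sign, to 0.088 and 0.10. Of the 952 genes with 2-fold differences, 380 kept call, size and sign with slide as a term and 462 after normexp, against 805 to 950 under the other settings. Leaving out 1 array at a time gave 6039 to 8352 genes that passed, 469 to 570 at least 2-fold higher and 360 to 596 at least 2-fold lower. Under these and the remaining settings but slide, the named genes that passed kept their direction and their side of the threshold, apart from those 2 after normexp and from 2 that a stricter filter left untested (Pet100 and the epsilon chain). With slide as a term 22 more lost the call. The replicate number as a block gave 7879 genes. Same-numbered samples of both groups had correlations of their deviations of -0.11, 0.15, 0.18 and 0.020 for numbers 1 to 4, so the numbers do not pair the samples, and not every sample correlated best with its own number. The wild type against ARF-DTR PBS count of 6047 ran from 4777 to 7897. Dim probes limit the falls: 80 of the 422 genes were not above background on any DT-treated array.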

Other observations

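Genes of the germinal centre, where B cells that bind antigen are selected, were looked at after values had been seen and lie outside the rule for naming genes. Il21, a T cell cytokine that drives B cells toward plasma cells, was not well above background on any 2-month array and was at least 4.32-fold higher after DT (adjusted p = 0.00294). Nuggc, a nuclear GTPase of germinal centre B cells, was at least 4.49-fold higher (adjusted p = 0.000342). Bcl6, the repressor that defines germinal centre B cells and is also made by other cells, differed by 0.036 ± 0.14 (adjusted p = 0.872). With slide as a term, Nuggc passed (adjusted p = 0.011) and Il21 did not (adjusted p = 0.0594).

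Oosp2, which lies beside Oosp1 on chromosome 19 (probes at chr19:11721846-11721905 and chr19:11742163-11742222), was also not well above background on any 2-month array and was at least 2.47-fold higher after DT (adjusted p = 0.00121, limma fit). It passed with slide as a term (adjusted p = 0.00848).

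Outside the immunoglobulin loci 373 genes were at least 2-fold higher, of which 301 had a slide-adjusted difference of at least 1 and 188 passed with slide as a term. The median GC content of probes was 45% for genes at least 2-fold higher, 40% for genes at least 2-fold lower and 43.3% for all genes tested, and its part in the differences was not tested.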
